A study of Rattus norvegicus with 320 samples.

Results

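The miRNAs miR-132 and miR-212 were described across 11 organs and 4 ages of the Fischer 344 rat, an inbred strain. Every row of the table named rno-miR-132 or rno-miR-212 was taken, with either arm of the hairpin, which gave 4 miRNAs of the 616 in the table (miR-132-3p, miR-132-5p, miR-212-3p and miR-212-5p). The study sequenced small RNA from whole organs of untreated female and male rats at week 2, week 6, week 21 and week 104 (juvenile, adolescent, adult and aged), with 4 biological replicates for each organ, sex and age and several organs from each rat. The organs were adrenal gland, brain, heart, kidney, lung, liver, skeletal muscle, spleen and thymus in both sexes, testis in males and uterus in females, in 80 groups. All of the 320 samples were used but 2 that the study set aside, because they clustered apart from their organ, Brn_M_006_3 (brain, male, week 6, replicate 3) and Spl_F_104_4 (spleen, female, week 104, replicate 4). Each sample is RNA from many cell types of 1 organ, so fewer cells of a type and less RNA per cell cannot be told apart.

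A miRNA is a short RNA that guides a silencing complex to messenger RNAs, which it recognises mainly through its seed, bases 2 to 8. Each hairpin precursor is cut into a 5p arm and a 3p arm, of which usually 1 is kept in larger amounts. The genes of miR-132 and miR-212 lie next to each other and are transcribed together. In neurons their transcription follows synaptic activity and neurotrophins through the transcription factor CREB, and miR-132 is known for promoting dendrite growth and spine formation. Outside the nervous system the pair has been studied in cardiac growth, in blood vessels and in immune cells.

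The mature sequences are shown because the 3p arms share a seed and differ elsewhere, so that their reads can be told apart. They are RefSeq sequences, 5′ to 3′, with the seed in capitals.
rno-miR-132-3p: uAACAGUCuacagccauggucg
rno-miR-212-3p: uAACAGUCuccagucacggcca
rno-miR-132-5p: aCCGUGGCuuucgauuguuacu
rno-miR-212-5p: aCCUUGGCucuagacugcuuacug
Both 3p arms carry the seed AACAGUC, which no other miRNA of the table with a RefSeq sequence had. Counted from the 5′ end, miR-212-3p differed from miR-132-3p at 5 of 22 positions (A10C, C14U, U17C, U20C and G22A), all outside the seed. The 5p seeds, CCGUGGC and CCUUGGC, differed from each other and were shared with no other miRNA of the table with a RefSeq sequence. By exact match to the RefSeq records of mature miRNAs in the GRCr8 build, all 4 lie on the plus strand of chromosome 10. In order along the strand, miR-212-5p lies at chr10:60521771-60521794, miR-212-3p at chr10:60521811-60521832, miR-132-5p at chr10:60522055-60522076 and miR-132-3p at chr10:60522091-60522112. Thus 222 bases separate the end of miR-212-3p from the start of miR-132-5p, and the 4 arms span 342 bases. Annotated neighbours are Smg6 and Hic1 on one side and the long non-coding RNA LOC120095261, Ovca2 and Dph1 on the other.

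The libraries held between 315550 and 10571766 miRNA counts, lowest in liver. Levels are given as CPM, the count of a miRNA scaled to a library total of 1e+06 miRNA counts, so a level in 1 organ also depends on how abundant its other miRNAs are. The neuronal miRNAs (miR-124-3p, miR-128-3p, miR-137-3p and miR-9a-5p, 4 in all) were each higher in every one of the 31 brain libraries than in any library of another organ. The testis miRNAs miR-741-3p, miR-743a-3p and miR-871-3p summed to 12438 to 33159 CPM in testis at week 21 but to 42.4 to 724.2 CPM at week 104. In brain the same 3 summed to 0.704 to 99.7 CPM at week 21 and to at most 3.69 CPM at each other age.

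All 4 arms were far higher in brain than in any other organ. In the 31 brain libraries miR-132-3p ranged from 989.3 to 5330 CPM with a median of 2397 CPM, and it was the 52nd of 616 miRNAs by mean CPM in brain. miR-212-3p ranged from 181.7 to 749.7 CPM (median 428.3 CPM), miR-132-5p from 93.5 to 841.3 CPM (median 342.4 CPM) and miR-212-5p from 182.2 to 882.0 CPM (median 482.6 CPM). No library of another organ reached these ranges. Outside brain the highest miR-132-3p value was 72.2 CPM, in testis at week 21, and the highest miR-212-3p value was 30.3 CPM, in the same group. Of the sum of the 11 organ means, brain held 93.4% for miR-132-3p and 91.7% for miR-212-3p.

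**Figure D1:**
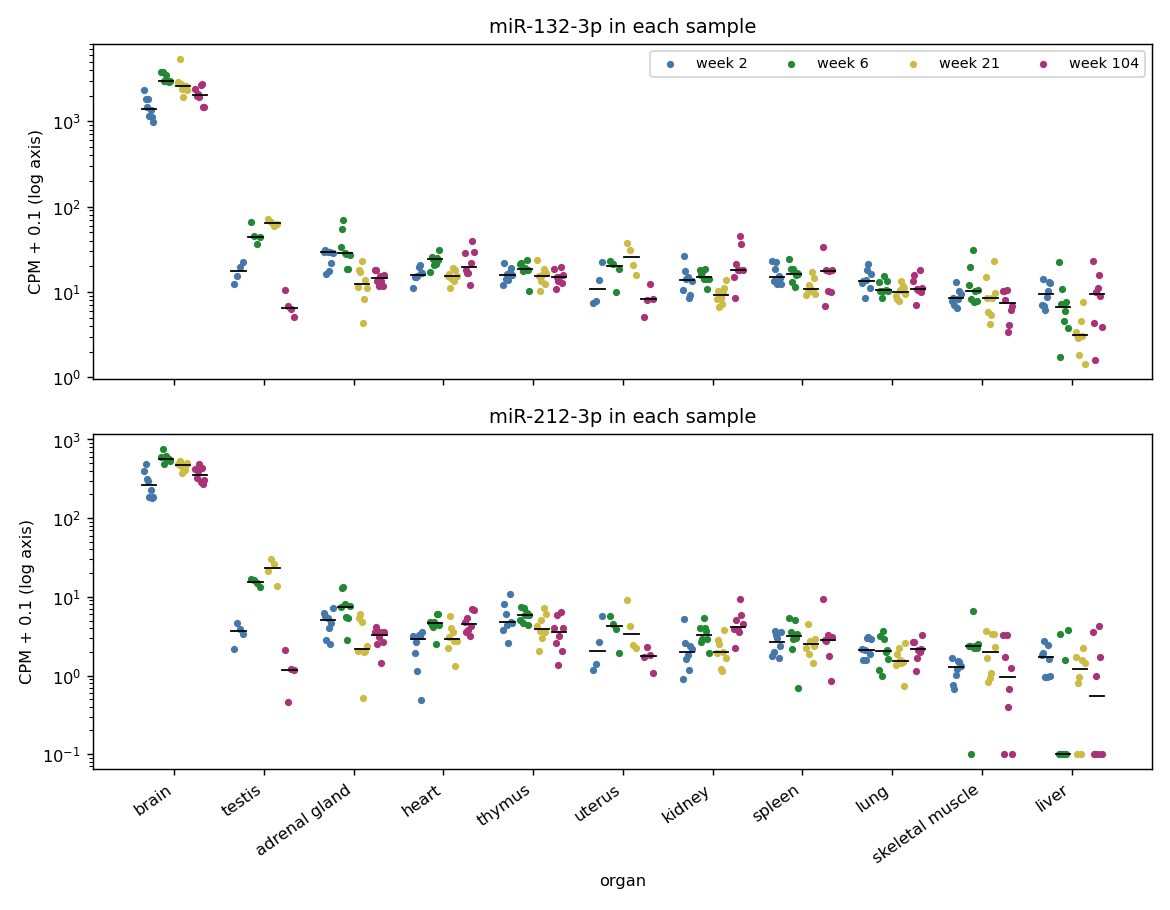
CPM of miR-132-3p (top) and miR-212-3p (bottom) in each sample used, by organ and age, on a log axis with 0.1 added so that samples at 0 can be drawn; each point is 1 sample and each short line the median of an organ and age. The brain samples lie above every other sample in both panels, and the medians of testis at weeks 6 and 21 are the highest outside brain.

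In edgeR's quasi-likelihood test, with p-values adjusted over all 616 miRNAs of a comparison, each of the 4 arms was at least 4-fold higher in brain in 40 of 40 comparisons (10 organs at 4 ages). In a single comparison between 21.3% and 38.8% of all miRNAs met this call (30.3% at week 2, 29.7% at week 6, 33% at week 21 and 33.1% at week 104 with the 10 organs pooled), and 7.95% met it in all 40. The smallest log2 fold change of miR-132-3p was 4.89 ± 0.30 (SE; 29.7-fold), over uterus at week 21. For miR-212-3p and miR-132-5p the smallest were 3.91 ± 0.33 (15.1-fold) and 4.11 ± 0.40 (17.3-fold), both over testis at week 21. For miR-212-5p it was 4.63 ± 0.28 (24.7-fold), over adrenal gland at week 2. The largest adjusted p among the 160 tests behind these counts was 2.26e-15. These folds use TMM scaling, which sets the bulk of the miRNAs equal between libraries. With library size alone the median log2 fold change of all miRNAs was 0.20 to 1.94 higher in favour of brain in the 40 comparisons, and the smallest fold changes became 43.8-fold for miR-132-3p and 20.5-fold for miR-212-3p, both over testis at week 21. In liver the counts were near the detection limit, and miR-212-3p was at 0 in 11 of 32 libraries there, miR-132-5p in 18 and miR-212-5p in 8.

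Outside brain the levels were low but measurable. miR-132-3p was counted at least once in every library. Its organ medians over all ages were 29.6 CPM in testis, 17.9 CPM in adrenal gland, 17.3 CPM in heart, 15.9 CPM in thymus, 14.7 CPM in uterus, 14.5 CPM in spleen, 14.1 CPM in kidney, 11.0 CPM in lung, 8.30 CPM in skeletal muscle and 6.82 CPM in liver. Many neighbours in the order of medians at 1 age did not differ beyond their spread: 4 to 6 of the 9 neighbouring pairs outside brain differed for miR-132-3p (adjusted p under the threshold of 0.05), and 1 to 6 of 9 for miR-212-3p. Neighbours are the closest pairs by choice. Over all 45 pairs of organs outside brain, miR-132-3p differed in 23 at week 2, 32 at week 6, 33 at week 21 and 23 at week 104. For miR-212-3p the counts at these ages were 18, 30, 31 and 20. Of all tests of a miRNA in such a pair, 62.9% were called at week 2, 61.2% at week 6, 58% at week 21 and 52.1% at week 104. With TMM scaling some neighbours also changed places, as testis and thymus did at week 2, where miR-132-3p was higher in testis by median CPM (17.3 and 15.8 CPM) and lower by 0.92 on the log2 scale in the test (adjusted p = 0.00017). At week 2 adrenal gland stood first outside brain, with miR-132-3p from 16.0 to 30.6 CPM (median 28.9 CPM), higher than in heart by 1.13 ± 0.17 on the log2 scale (adjusted p = 1.86e-08) and called over each other organ outside brain except thymus. At week 104 testis stood last by median CPM, at 5.01 to 10.5 CPM. It did not differ detectably from skeletal muscle, the next organ (log2 fold change of muscle over testis 0.06, edgeR, adjusted p = 0.918). In the tests at that age adrenal gland exceeded testis by 0.76 on the log2 scale, but lung by 0.95, liver by 0.86 and spleen by 0.82.

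The low levels outside brain were compared with those of neuronal miRNAs in the same libraries. As a share of its brain mean, miR-132-3p reached 0.320% in liver to 1.43% in testis, and miR-212-3p 0.294% in liver to 2.54% in testis. The 4 neuronal miRNAs did not behave alike by this measure. miR-124-3p, at 0.0236% in kidney to 0.257% in skeletal muscle, and miR-9a-5p, at 0.0666% in liver to 0.408% in kidney, were below miR-132-3p in each of the 10 organs. miR-137-3p, at 0.0395% in kidney to 3.77% in adrenal gland, was below it in 9 and above it in 1. miR-128-3p, at 0.410% in kidney to 15.9% in thymus, was above it in 7 of the 10. How much of the signal outside brain came from nerve fibres or ganglia in the organ was not tested.

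In brain the levels rose early with age, and a later partial decline was not called under every alternative run. miR-132-3p lay between 989.3 and 2327 CPM at week 2 (median 1400 CPM, n = 8), between 2903 and 3783 CPM at week 6 (median 2982 CPM, n = 7), between 1931 and 5330 CPM at week 21 (median 2583 CPM, n = 8) and between 1461 and 2716 CPM at week 104 (median 2019 CPM, n = 8). The week 2 and week 6 samples did not overlap, but the share of all miRNAs without such overlap was not worked out. From week 2 to week 6 miR-132-3p rose by 1.42 ± 0.14 on the log2 scale (SE; 2.68-fold; edgeR, adjusted p = 2.38e-09). miR-212-3p rose by 1.39 ± 0.10 (adjusted p = 3.01e-12), miR-132-5p by 1.66 ± 0.16 and miR-212-5p by 0.74 ± 0.19. Thus 4 of 4 arms rose, where 23.5% of all miRNAs rose. With library size alone, the rise of miR-132-3p was 1.14 and that of miR-212-3p 1.11, on the log2 scale. By the study's sample table lane 8 held 5 brain libraries, all of week 6, so age and lane largely coincide there. A lane term can separate the 2 only through the few other libraries.

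Between weeks 6 and 21 the 3p arms did not differ detectably in brain, with log2 fold changes of -0.05 ± 0.14 for miR-132-3p and -0.16 ± 0.09 for miR-212-3p (adjusted p = 0.884 and 0.246). miR-212-5p rose by 0.66 ± 0.19 (adjusted p = 0.0186), where 8.6% of all miRNAs rose. From week 21 to week 104, 3 of the 4 arms fell, where 2.44% of all miRNAs fell. miR-212-3p fell by 0.40 on the log2 scale (SE 0.09, adjusted p = 0.0146), miR-132-5p by 0.65 (SE 0.16, adjusted p = 0.0170) and miR-212-5p by 0.82 (SE 0.18, adjusted p = 0.0135). The log2 fold change of miR-132-3p was -0.45 ± 0.13 and missed the threshold (adjusted p = 0.0621). The fall of miR-212-3p also missed it with library size alone, with lane as a covariate and with all 320 samples (adjusted p = 0.0604 to 0.088), and without replicate 1, 3 or 4 (adjusted p = 0.0542 to 0.191). The falls of both 5p arms missed it with all 320 samples (adjusted p = 0.0604), that of miR-212-5p also with lane (adjusted p = 0.057), and each without replicate 1 or 2 (miR-132-5p also without replicate 4). The rise of miR-212-5p from week 6 to week 21 was not called with lane or without replicate 1 or 2 (adjusted p = 0.109 to 0.915), nor was its rise from week 2 to week 6 with lane (adjusted p = 0.0547). Aged brain remained above juvenile brain: from week 2 to week 104 miR-132-3p rose by 0.93 ± 0.13 (1.90-fold, adjusted p = 8.76e-07), miR-212-3p by 0.83 ± 0.09 (1.78-fold), miR-132-5p by 1.23 ± 0.16 and miR-212-5p by 0.57 ± 0.18, where 28.7% of all miRNAs rose. With library size alone the first 3 of these rises were 0.51, 0.42 and 0.80 and stayed called, while miR-212-5p, at 0.16, did not (adjusted p = 0.462), nor did it without replicate 1 or 2 (adjusted p = 0.161 and 0.0512). Without Brn_F_104_4, a library with a low share of miRNA reads for brain, each of these arms stayed on its side of the threshold against week 21 and against week 2, a check added after the values were seen.

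**Figure D2:**
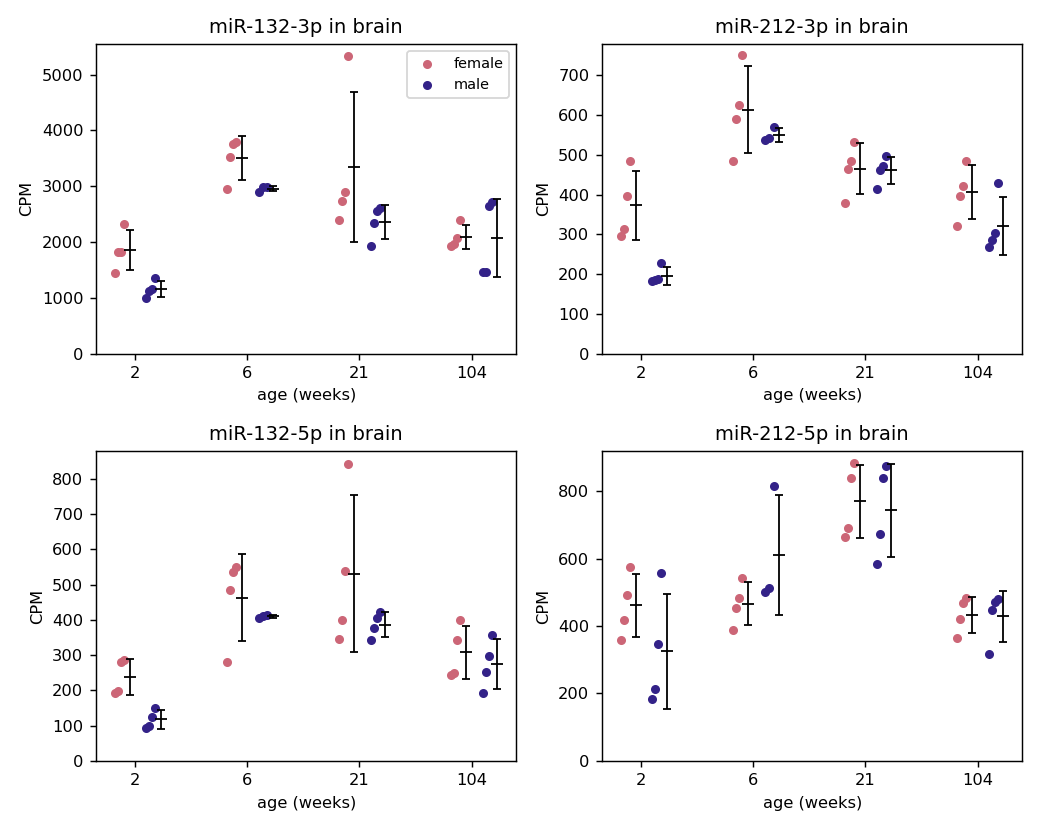
CPM of the 4 arms in brain by age, with females in pink and males in blue; each point is 1 sample, and the black line and bar beside each group are its mean and SD (n = 4, but 3 for males at week 6). The males of week 2 lie below the females of week 2 for miR-132-3p, miR-212-3p and miR-132-5p, and 1 female of week 21 reaches 5330 CPM for miR-132-3p.

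Libraries of juvenile male brains held less of the pair than those of juvenile female brains, which were run in other lanes. At week 2 miR-132-3p was 1452, 1817, 1824 and 2327 CPM in the 4 females and 989.3, 1128, 1150 and 1349 CPM in the 4 males. miR-212-3p was 295.9, 312.6, 396.6 and 484.6 CPM in the females and 181.7, 185.1, 186.4 and 227.8 CPM in the males. In neither case did the sexes overlap, but the share of all miRNAs without such overlap was not worked out. The male to female log2 fold change at week 2 was -0.81 ± 0.19 for miR-132-3p (edgeR, adjusted p = 0.00817), -1.06 ± 0.13 for miR-212-3p (adjusted p = 6.68e-06) and -1.14 ± 0.23 for miR-132-5p (adjusted p = 0.00169). For miR-212-5p, with males from 182.2 to 555.8 CPM and females from 359.5 to 576.2 CPM, it was -0.65 ± 0.26 (adjusted p = 0.17). Of all 616 miRNAs, 4.06% were lower in males at this age, and miR-212-3p had the smallest p of all. This comparison at week 2 alone was chosen after the values were seen. By the study's sample table no lane held week 2 brains of both sexes, so sex and lane cannot be told apart at that age. A lane term for it rests on brains of other ages. With lane as a covariate the difference of miR-212-3p was -0.84 (adjusted p = 0.0138), while those of miR-132-3p and miR-132-5p, -0.72 and -1.0, were no longer called (adjusted p = 0.201 and 0.0989), and with library size alone miR-132-3p was not called either (adjusted p = 0.0586), nor without replicate 1 or replicate 4 (adjusted p = 0.0842 and 0.131). The same male brains held less of the 3 miRNAs of myelinating cells, miR-219a-5p, miR-219a-2-3p and miR-338-3p, which differed by -0.60 to -1.19 on the log2 scale and were all called, while none of the 4 neuronal miRNAs was. Their part in the difference of miR-132 and miR-212 was not tested.

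Averaged over the 4 ages, the male to female log2 fold change in brain was -0.34 ± 0.07 for miR-212-3p (adjusted p = 0.0108), 1 of only 2 miRNAs called (0.325%), and -0.35 ± 0.10 for miR-132-3p (adjusted p = 0.137). The call for miR-212-3p was lost when any replicate number was left out (adjusted p = 0.0895 to 0.377). For miR-212-3p the sex difference changed with age, counted from week 2, when the sexes were in separate lanes. Its rise from week 2 to week 21 was larger in males than in females by 1.10 ± 0.18 on the log2 scale (sex by age interaction, adjusted p = 0.00128), and its rise from week 2 to week 104 by 0.84 ± 0.18 (adjusted p = 0.0143), where 1.3% and 0.974% of all miRNAs rose more in males. Both missed the threshold with library size alone (adjusted p = 0.0562 and 0.238), the former also without replicate 1 or 4 and the latter without any 1 replicate. At week 21 the means of miR-212-3p were 460.5 ± 35 CPM in males and 465.0 ± 64.4 CPM in females (SD, n = 4 each). The interactions of miR-132-3p were 0.37 ± 0.26 and 0.90 ± 0.27 and were not called (adjusted p = 0.562 and 0.101). In the test over all ages only the adrenal gland had, beside brain, a called sex difference of an arm, with miR-132-3p at a mean of 17.6 CPM in males and 26.4 CPM in females, a log2 fold change of -0.37 ± 0.11 (adjusted p = 0.044, where 2.27% of all miRNAs were lower in males) that was lost under library size alone, lane, the filter on low counts, the replicate block and the leaving out of replicate 1, 2 or 3. Across the 9 organs, 0% to 5.03% of all miRNAs were called by sex.

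Testis levels rose and fell with age. miR-132-3p was 12.2, 15.1, 19.4 and 22.4 CPM in the 4 testes of week 2, 36.8, 44, 44.8 and 66.3 CPM at week 6, 59.4, 63.0, 65.7 and 72.2 CPM at week 21, and 5.01, 6.16, 6.75 and 10.5 CPM at week 104. The samples of weeks 6 and 21 lay above all those of weeks 2 and 104, and the share of all miRNAs that did so was not worked out. miR-212-3p went from 2.08 to 4.61 CPM at week 2 to 13.4 to 16.8 CPM at week 6, 13.4 to 30.3 CPM at week 21 and 0.355 to 2.02 CPM at week 104. Between weeks 2 and 6 all 4 arms rose, where 18.5% of all miRNAs rose: miR-132-3p by 1.5 ± 0.24 on the log2 scale (adjusted p = 0.000101), miR-212-3p by 2.17 ± 0.37, miR-132-5p by 2.85 ± 0.33 and miR-212-5p by 1.88 ± 0.50. The rise of miR-212-5p was not called with lane as a covariate or without replicate 2 (adjusted p = 0.0516 and 0.055). No arm was called between weeks 6 and 21. From week 21 to week 104 all 4 fell, where 24.8% of all miRNAs fell: miR-132-3p fell by 1.90 (SE 0.24, adjusted p = 2.91e-06), miR-212-3p by 2.99 (SE 0.37), miR-132-5p by 3.80 (SE 0.34) and miR-212-5p by 2.33 (SE 0.51).

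**Figure D3:**
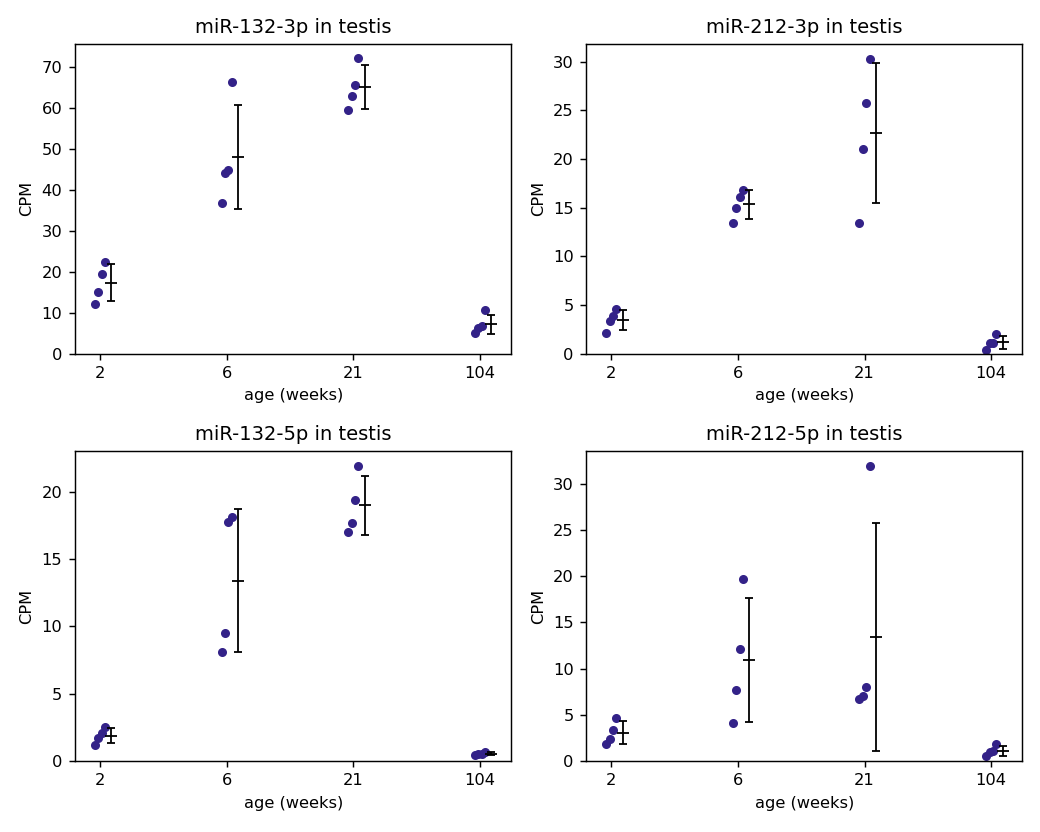
CPM of the 4 arms in testis by age; each point is 1 of 4 samples of an age, and the black line and bar beside them are the mean and SD. All 4 arms are high at weeks 6 and 21 and low at week 104, and 1 sample of week 21 reaches 32.0 CPM for miR-212-5p.

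The make-up of the testis libraries moved with the same ages. By the study's sample table the adolescent and adult testis libraries consisted mostly of piRNA, the small RNA of germ cells, and miRNA was a small share of their reads, lower than in any other library, while the juvenile and aged testis libraries were mostly miRNA. CPM here is per miRNA count and leaves out piRNA. The part of this shift in the rise and the fall of miR-132 and miR-212 was not tested.

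The size of the late fall in testis depended on the scaling. With library size alone it was 3.20 for miR-132-3p and 4.30 for miR-212-3p on the log2 scale (9.19-fold and 19.7-fold lower). Aged against juvenile testis changed direction: the log2 fold change of miR-132-3p from week 2 to week 104 was 0.31 ± 0.24 with TMM scaling (adjusted p = 0.293) and -1.29 ± 0.28 with library size (adjusted p = 0.000398), so no direction can be given. From week 2 to week 6, when the pair rose, 3 of 3 testis miRNAs rose as well (median log2 fold change 2.78). So did 3 of 3 red blood cell miRNAs (median 1.57) and, among the 4 neuronal miRNAs, miR-124-3p and miR-128-3p. Meanwhile 1 of 5 leukocyte miRNAs and neither endothelial miRNA rose, and 1 of 2 smooth muscle miRNAs fell. Over this interval 18.5% of all miRNAs rose in testis, and across the 11 organs 9.9% to 26.8% fell. From week 21 to week 104 the testis miRNAs miR-741-3p, miR-743a-3p and miR-871-3p fell as well, by 3.94 to 5.78 on the log2 scale. The 4 neuronal miRNAs summed to 592.0 to 870.3 CPM at week 21 and 100.3 to 266.4 CPM at week 104. Of these, miR-9a-5p and miR-124-3p fell and the other 2 were not called. Meanwhile 4 of 5 leukocyte and 2 of 2 endothelial miRNAs rose and 2 of 2 smooth muscle miRNAs fell. Over this interval 24.8% of all miRNAs fell in testis, and across the 11 organs 0.487% to 25.8% rose. miR-124-3p itself moved like the pair, from 2.38 to 7.13 CPM at week 2 to 20.4 to 88.9 CPM at week 6, 34.0 to 47.5 CPM at week 21 and 1.37 to 3.02 CPM at week 104. The part of these changes in cell make-up in the values of miR-132 and miR-212 was not tested.

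In heart miR-132-3p rose from a median of 15.8 CPM at week 2 (11.1 to 20.4 CPM) to 24.0 CPM at week 6 (16.9 to 31.2 CPM). With TMM scaling this was 1.09 ± 0.16 on the log2 scale (edgeR, adjusted p = 1.64e-06), and miR-212-3p rose by 1.44 ± 0.28. With library size alone the 2 rises were smaller, 0.57 and 0.93, and stayed called (edgeR, adjusted p = 0.00894 and 0.00907). Both 3p arms were also higher at week 104 than at week 2, by 1.04 ± 0.16 and 1.56 ± 0.28 with TMM scaling. For that span library size alone shifted the median of all heart miRNAs by -0.52. All 4 arms rose in heart over both intervals, where 20.5% and 28.6% of all miRNAs rose, but the 5p arms did not pass with library size alone (adjusted p = 0.0505 to 0.312) and 3 of their 4 calls were lost without 1 replicate. Between weeks 6 and 21 miR-132-3p fell by 0.44 in heart (SE 0.16, adjusted p = 0.0452), where 15.1% of all miRNAs fell, a call lost with the filter on low counts and with the replicate block (adjusted p = 0.0519 and 0.0564) and without replicate 2, 3 or 4. In kidney the 4 arms rose late. miR-132-3p went from 6.48 to 13.7 CPM at week 21 to 8.47 to 44.9 CPM at week 104, with overlap, a rise of 1.17 ± 0.18 (adjusted p = 1.55e-05), and miR-212-3p rose by 1.17 ± 0.28, where 6.17% of all miRNAs rose, although miR-212-3p was not called with lane as a covariate (adjusted p = 0.0997). All 4 arms were also higher at week 104 than at week 2, where 17.7% rose, with miR-132-3p at 0.85 ± 0.17, but miR-212-5p was called there neither with library size alone (log2 fold change 0.55, adjusted p = 0.237) nor with lane, the replicate block or without replicate 1, 2 or 3. The late rises of the 5p arms were each lost without replicate 2 or 3, and that of miR-132-5p also without replicate 1 and with lane. In the adrenal gland the pair fell between weeks 6 and 21. miR-132-3p went from 18.5 to 70.3 CPM at week 6 to 4.19 to 22.9 CPM at week 21, a fall of 1.05 on the log2 scale (SE 0.15, adjusted p = 7.54e-06), and miR-212-3p fell by 1.14 (SE 0.23), where 10.2% of all miRNAs fell.

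Other calls were less stable. In the adrenal gland the 3p arms rose from week 2 to week 6 by 0.54 and 0.80 on the log2 scale, where 15.1% of all miRNAs rose, but not with library size alone (adjusted p = 0.208 and 0.0918) or without replicate 3. Adrenal miR-132-3p also fell from week 2 to week 104, by 0.37 (SE 0.15, adjusted p = 0.0482), where 23.7% fell, a call lost with lane, the filter, the replicate block or without replicate 1, 2 or 3. In uterus miR-132-3p rose by 1.09 ± 0.31 from week 2 to week 6, where 12.5% of all miRNAs rose, a call also lost with library size (adjusted p = 0.306). It fell from 15.6 to 36.9 CPM at week 21 to 5.01 to 12.3 CPM at week 104, by 1.17 on the log2 scale (SE 0.30, edgeR, adjusted p = 0.0116). Of all miRNAs 9.58% fell there, and the call was lost with lane as a covariate (edgeR, adjusted p = 0.453). Both uterus calls were also lost without replicate 1 or 2. In skeletal muscle both 3p arms rose from week 2 to week 6, by 0.78 ± 0.28 and 1.35 ± 0.46, where 19.5% of all miRNAs rose, and in thymus both fell from week 2 to week 104, by 0.42 (SE 0.17) and 0.93 (SE 0.28), where 33% fell. None of these 4 calls held with library size alone (adjusted p = 0.0735 to 0.708), and each was lost without at least 1 of the replicates. Single 5p calls were a rise of miR-132-5p in skeletal muscle from week 2 to week 104 by 1.39 ± 0.58, where 28.1% rose, a call lost with library size alone (0.53, adjusted p = 0.465), DESeq2, lane, the replicate block and without replicate 1, 3 or 4, and a fall of miR-212-5p in thymus from week 6 to week 21 by 1.13 (SE 0.38), where 5.52% fell, a call lost without replicate 1, 3 or 4. In lung and spleen no arm was called in any of the 4 age comparisons by edgeR, and in liver only miR-212-5p was, which rose by 1.52 ± 0.59 from week 2 to week 6 and fell by 2.14 (SE 0.70) to week 21, at counts near the detection limit, where 12.2% of all miRNAs rose and 4.55% fell. The liver rise was lost with library size alone (adjusted p = 0.073), DESeq2, lane, the replicate block and without replicate 1, 2 or 4, and the fall with lane, the replicate block and without any 1 replicate. Over all organs 53 tests of an arm between ages were called, from 4 arms in 11 organs and 4 age comparisons. In 1 organ and comparison, 0.487% to 28.7% of all miRNAs were called higher and 1.95% to 36.7% lower. The count of 53 is therefore no result about the arms as a set. Of these calls 23, 17 of 29 for the 3p arms and 6 of 24 for the 5p arms, were kept under every alternative run. The share kept over all miRNAs was not worked out.

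**Figure D4:**
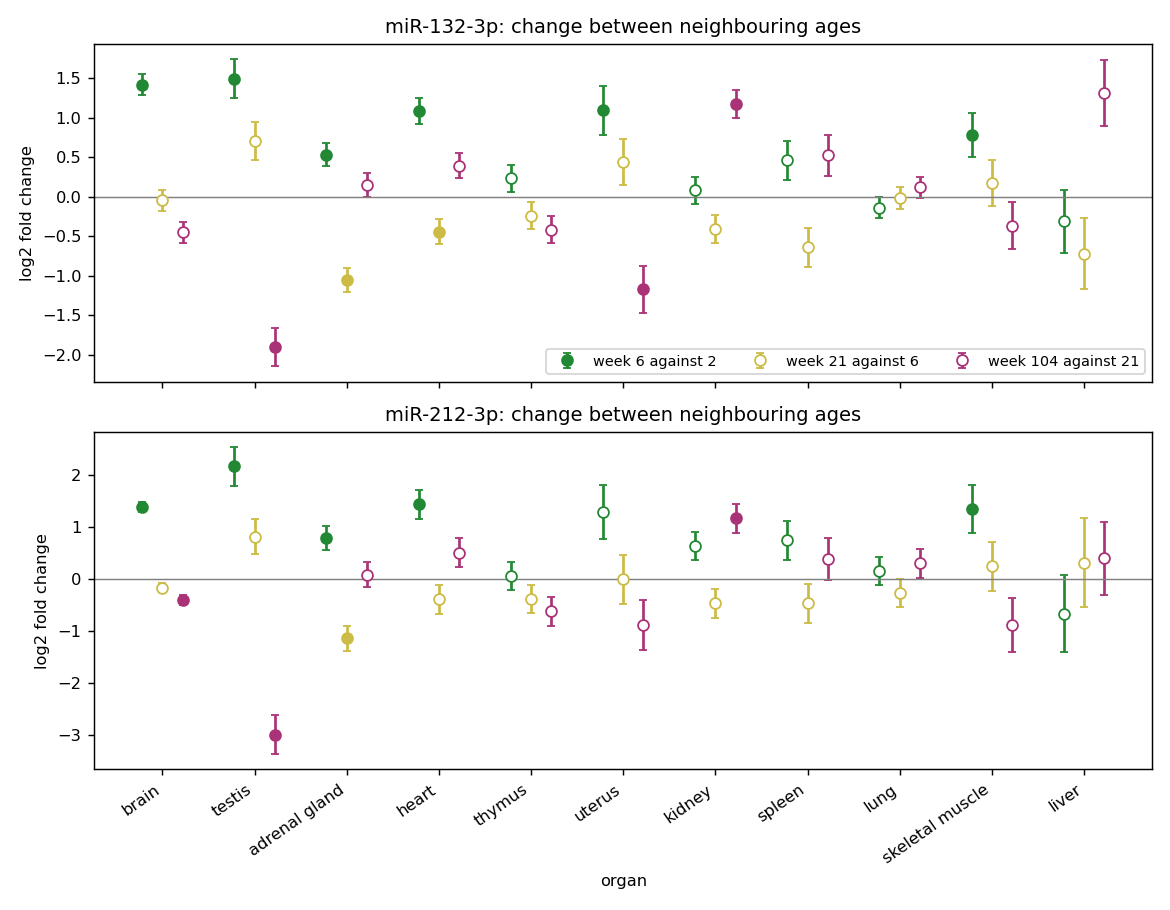
Log2 fold change between neighbouring ages in each organ for miR-132-3p (top) and miR-212-3p (bottom). Points are edgeR estimates, bars an SE worked back from the test statistic, and filled points have an adjusted p under 0.05. From week 2 to week 6 no organ has a filled point below 0, and the testis has the lowest points from week 21 to week 104.

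Whether the change with age differed from that in brain was tested directly in 1 fit over all organs. From week 2 to week 21 the change of miR-132-3p was lower than in brain in 7 of 10 organs, where 25.4% of all tests over the 10 organs were lower (11.9% to 30% in 1 organ), and higher in testis, by 0.91 ± 0.33 on the log2 scale (adjusted p = 0.0174, where 15.9% were higher). The differences ranged from -2.36 ± 0.36 in liver to that in testis. For miR-212-3p it was lower in 6 of 10 organs and higher in testis by 1.84 ± 0.42 (adjusted p = 6.57e-05), but the count of 6 came down to 3 with library size alone or DESeq2. To week 104 it was lower in 5 of 10 organs for miR-132-3p and in 2 for miR-212-3p, where 25.1% of all tests were lower (14.6% to 34.3% in 1 organ). The 5 became 1 to 4 without 1 replicate. The spleen changes start from juvenile spleens, all of which had low RNA integrity numbers in the study's sample table, below those of all other samples, and the part of this in the spleen values was not tested. Without spleen the counts to week 21 were 6 of 9 for miR-132-3p and 5 of 9 for miR-212-3p, and to week 104 they were 4 of 9 and 2 of 9. The difference was lowest in thymus, at -1.61 ± 0.28 for miR-132-3p and -2.01 ± 0.36 for miR-212-3p.

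The balance of the 2 hairpins was compared through the ratio of miR-132-3p to miR-212-3p counts within a library, which does not depend on the scaling. In brain the mean ratio was 5.66, with a log2 ratio of 2.50 ± 0.29 (SD, n = 31). It was 3.50 in thymus, with a log2 ratio of 1.81 ± 0.54 (n = 32), lower than in brain in a two-sided permutation test (adjusted p = 0.0002, the smallest that 100000 resamples over 10 organs can give here). In testis it was 4.10, with a log2 ratio of 2.04 ± 0.71 (permutation test, n = 16, adjusted p = 0.0107). Within testis the mean ratios were 4.87 at week 2, 3.00 at week 6, 2.96 at week 21 and 6.53 at week 104, so that the ratio was below the brain mean at weeks 2, 6 and 21. In the remaining 8 organs the mean ratio was 4.85 to 6.08 and did not differ detectably from brain (adjusted p from 0.0554 in adrenal gland to 0.758). With at least 30 counts of the pair 3 organs differed from brain, and without replicate 1 or replicate 3 only 1 did. Between week 2 and week 104 no organ of 11 had a called difference in an exact permutation test. The lowest adjusted p was 0.0889, in kidney, with a mean ratio of 6.91 at week 2 and 4.54 at week 104.

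**Figure D5:**
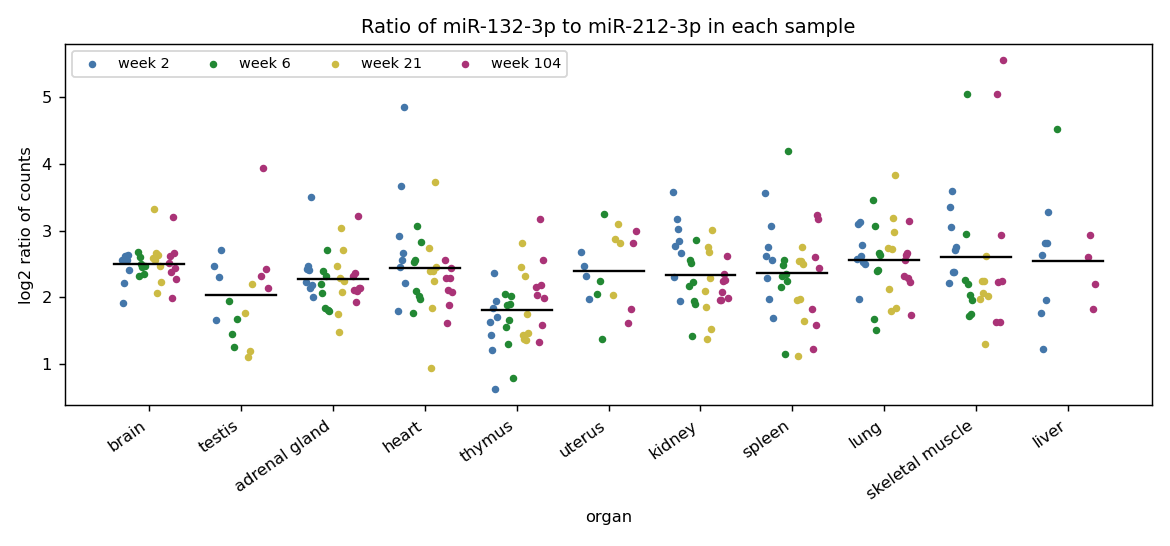
Log2 ratio of miR-132-3p to miR-212-3p counts (0.5 added to each) in each sample with at least 10 counts of the pair, by organ and age; each point is 1 sample and each black line the organ mean. The thymus mean of 1.81 lies lowest, and the testis samples of weeks 6 and 21 lie below those of week 104 in mean.

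The arms of each hairpin were kept in different proportions. For the miR-132 hairpin the 3p arm dominated in every organ, with a mean 3p to 5p ratio of 7.36 in brain (log2 ratio 2.88 ± 0.28), 5.88 in testis and 8.31 to 14.2 in the other organs. In brain it was 8.80 at week 2, 7.52 at week 6, 6.21 at week 21 and 7.15 at week 104. In the testes of weeks 6 and 21 it was 3.61 and 3.38, and 7 of these 8 samples lay below the lowest brain sample. These ratios were not tested, and miR-132-5p had under 10 counts in 91.3% of the samples outside brain. For the miR-212 hairpin neither arm dominated, and in brain the median level of the 5p arm, 482.6 CPM, exceeded that of the 3p arm, 428.3 CPM. The 3 brain libraries of lane 3 lay lower in the miR-212 arm ratio by a mean of 0.48 on the log2 scale after centring on their groups. Their centred values were -0.99 to -0.09. Their mean was the most extreme of the lane means, which were not tested.

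In some organs the 2 hairpins also varied together between samples of 1 group. After the mean of each organ, sex and age was removed, log2(CPM + 1) of miR-132-3p and miR-212-3p correlated in brain with Pearson's r = 0.505 (100000 permutations within groups, adjusted p = 0.0332 over 11 organs, n = 31) and Spearman's rho = 0.487 (adjusted p = 0.0306). Without the 2 samples farthest from the median of miR-132-3p, r was 0.384. With TMM library sizes it was 0.412 and missed the threshold (adjusted p = 0.089), as it did without any 1 replicate (adjusted p = 0.0597 to 0.324). The correlation was also called in adrenal gland (r = 0.708, rho = 0.684), kidney (0.678, 0.614), uterus (0.702, 0.703), skeletal muscle (0.612, 0.556) and thymus (0.418, 0.556), and r without the 2 farthest samples was 0.491 to 0.698 in these. With TMM library sizes the last 3 were no longer called (adjusted p = 0.089 to 0.231). It was not called in heart, lung, liver, spleen or testis, with r from 0.0983 to 0.377.

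Across the 44 means of organ and age, miR-132-3p and miR-212-3p followed each other with r = 0.992 on the log2(CPM + 1) scale, a description that rests largely on brain against all other organs. Enough counts were present for 457 miRNAs, the arms of the pair among them. Leaving out these arms, the 5 most like miR-132-3p were miR-9a-3p (r = 0.971), miR-124-5p (0.959), miR-764-3p (0.959), miR-219a-2-3p (0.955) and miR-153-5p (0.949). For miR-212-3p they were miR-9a-3p (0.964), miR-124-5p (0.953), miR-764-3p (0.947), miR-124-3p (0.946) and miR-219a-2-3p (0.944). With Spearman's rho none of these was among the 5, and miR-346, miR-129-5p and miR-344a-3p were in the 5 of both.

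Other brain miRNAs did not share 1 course with age. A list of 17 miRNAs tied to neuronal activity and synapses, chosen with earlier results of these data known, was measured in full. In brain, 4 of them rose and 3 fell from week 2 to week 6, with a median log2 fold change of -0.03 beside 0.00068 for all miRNAs. Of all miRNAs 23.5% rose in brain over this interval, and across the 11 organs 9.9% to 26.8% fell. Over the whole span, to week 104, 5 rose and 6 fell (median 0.12 beside 0.07). In brain 28.7% of all miRNAs rose over this span, and across the 11 organs 23.7% to 36.7% fell. These counts are not read as a result about the list as a set. The changes ran from miR-34a-5p, which rose by 2.10 ± 0.12, to miR-188-5p, which fell by 1.24 (SE 0.11). Of the 4 neuronal miRNAs, miR-124-3p rose by 1.12 ± 0.11 over that time and miR-9a-5p fell by 0.37 (SE 0.11). The 3 miRNAs of myelinating cells rose both from week 2 to week 6 and to week 104, with miR-338-3p at 3.26 ± 0.13 and miR-219a-2-3p at 0.51 ± 0.11 for the latter. Among markers of other cells over the same span, the smooth muscle miRNAs miR-143-3p and miR-145-5p rose by 1.01 ± 0.12 and 0.85 ± 0.15, the leukocyte miRNA miR-223-3p rose by 1.03 ± 0.20 and miR-155-5p fell by 0.90 (SE 0.15), and of the endothelial pair miR-126a-3p rose by 0.27 ± 0.10. Their part in the values of miR-132 and miR-212 was not tested. From week 21 to week 104, when falls of miR-212-3p, miR-132-5p and miR-212-5p were called, none of the 17 was called by edgeR. Of all miRNAs, 2.44% fell in brain over that time.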

How the data were processed

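Small RNA libraries of 320 total RNA samples were sequenced by the authors, who trimmed reads (fastp 0.23.2), mapped them (Bowtie 1.3.1) and deposited raw counts per miRNA. The build named in the submitters' notes is rn7. The deposited counts carry no normalization. All 616 miRNAs were tested with edgeR 4.0.16 (R 4.3.3), TMM scaling and its quasi-likelihood test, with 1 fit per age over organs, 1 per organ over sexes and ages, and 1 over all groups. P-values were Benjamini-Hochberg adjusted per contrast (threshold 0.05). Each SE of an edgeR log2 fold change was worked back from that fold change and its test statistic, so it is erratic for fold changes near 0. CPM used column totals. Ratios were tested by permutation. Analyses used Python 3.11.15, SciPy 1.17.1 and, as an alternative, DESeq2 1.42.0. Lanes came from the study's sample table. Replicates are separate rats, and the organs of 1 rat are not independent. Of 480 replicate pairs none was identical.

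The members and lists were chosen with earlier results of these data known. Named are all arms, the 5 miRNAs most like each 3p arm, same-seed miRNAs and list members with the largest and smallest change in brain from week 2 to week 104. The week 2 sex comparison and the check without Brn_F_104_4 were added after the values were seen. Alternatives were scaling by library size, DESeq2, a filter on mean counts (minimum 10), keeping every one of the 320 samples, a lane term, a block on the replicate number and leaving out each replicate in turn. Scripts were tested on simulated counts. A detection limit of 3 counts covers counting error only.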

Additional observations from a re-analysis of the deposited data

Results flagged for a closer look

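In all, 3 values lay apart from the other 3 of their group, in 44 sets of values tested (4 arms in the 11 brain and testis groups of 4 samples), where about 1 in 20 is flagged without any effect. miR-132-3p reached 5330 CPM in 1 female brain of week 21, miR-212-3p reached 227.8 CPM in 1 male brain of week 2, and miR-212-5p reached 32.0 CPM in 1 testis of week 21.

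The change with age differed from that in brain in the following tests, given as log2 differences (other organ minus brain). From week 2 to week 21 miR-132-3p differed by -1.73 in adrenal gland, -1.04 in heart, -1.65 in kidney, -1.72 in lung, -2.36 in liver, -1.76 in spleen, -1.54 in thymus and 0.91 in testis. The juvenile spleens behind the spleen value had low RNA integrity. Over the same time miR-212-3p differed by -1.42 in adrenal gland, -1.02 in kidney, -1.52 in lung, -1.57 in liver, -1.14 in spleen, -1.69 in thymus and 1.84 in testis. From week 2 to week 104 miR-132-3p differed by -1.14 in adrenal gland, -1.11 in lung, -0.70 in spleen, -1.61 in thymus and -0.88 in uterus, and miR-212-3p by -0.94 in adrenal gland and -2.01 in thymus.

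The rise of miR-212-3p in brain was larger in males than in females by 1.10 from week 2 to week 21 and by 0.84 from week 2 to week 104, on the log2 scale. The male and female brains of week 2 were in separate lanes.

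In the spleen library that the study set aside, miR-132-3p reached 194.6 CPM, miR-212-3p 33.0 CPM, miR-132-5p 24.2 CPM and miR-212-5p 65.5 CPM, while the highest values among the other spleen libraries were 33.3, 9.22, 5.17 and 7.76 CPM.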

How the results depend on the processing

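The call that all 4 arms were at least 4-fold higher in brain held in 40 of 40 comparisons under each alternative run, as did the rises of the 3p arms from week 2 to week 6 in brain and testis, their rises to week 104 in brain and their late falls in testis. For the brain rise to week 6 the lane term rests on few libraries, because most week 6 brains were in a lane without brains of another age. For brain from week 21 to week 104, miR-132-3p was called with DESeq2 (-0.46), the filter on a mean count of at least 10 (-0.47) and the replicate block (-0.46). miR-212-3p was not called with library size alone (-0.36), all 320 samples (-0.40) or lane as a covariate (-0.36), and without 1 replicate it was -0.42 to -0.36. From week 6 to week 21 miR-132-3p changed sign near 0 with all 320 samples (0.0091), lane (0.022) and without 1 replicate (-0.19 to 0.031), and miR-212-3p was called with library size alone (-0.33). In testis miR-132-3p was called with DESeq2 from week 6 to week 21 (0.72), and from week 2 to week 104 with DESeq2 (0.60) and, reversed, with library size alone (-1.29). miR-212-3p there was called with library size alone (-1.59) and turned sign with DESeq2 (0.30), lane (0.60), the replicate block (0.0093) and without 1 replicate (-0.40 to 0.54). For sex in brain, DESeq2 called miR-132-3p (-0.34), while miR-212-3p lost its call with library size alone (-0.36), lane (-0.30) and without 1 replicate (-0.38 to -0.29). The interaction of sex and age to week 104 was called for miR-132-3p with DESeq2 (0.85). For miR-212-3p that to week 21 was lost with library size alone (0.92) and without 1 replicate (0.98 to 1.15), and that to week 104 with library size alone (0.60), the filter (0.70), lane (0.52) and without 1 replicate (0.47 to 0.96). The count of organs with a lower change than brain to week 104 was 3 for miR-132-3p with DESeq2 or the filter (1 to 4 without 1 replicate), and 1 for miR-212-3p with the filter (1 to 2 without 1 replicate). To week 21 it was 3 for miR-212-3p with library size alone, DESeq2 or the filter (2 to 4 without 1 replicate). Ratios differed from brain in 1 to 3 organs, and with age in 0 to 1, without 1 replicate. The brain correlation was 0.412 with TMM library sizes and 0.39 to 0.63 without 1 replicate, where it was not called. Median brain CPM with TMM library sizes was 1382 for miR-132-3p and 254.2 for miR-212-3p. With Spearman's rho 0 of the 5 most alike miRNAs were shared for either 3p arm.

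Samples of 1 replicate number showed no pairing (mean correlation of deviations 0.0103 between organs, lowest -0.51). That cannot show whether a number marks 1 rat, since organs of 1 rat need not deviate together. With the replicate block miR-132-3p fell by 0.46 from week 21 to week 104 in brain.

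Depth limits the values outside brain, where the 5p arms and miR-212-3p often had under 10 counts, and liver had the fewest. In 33 of 44 age comparisons library size alone moved the median of all miRNAs by over 0.1 on the log2 scale (-1.5 to 0.34). The 3 brain libraries of lane 3 lay lower in the miR-212 arm ratio, which was not tested. Traces of testis miRNAs in week 21 brains are far below the testis level.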
